A study of Mus musculus with 2 samples.

Results

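Type 1 conventional dendritic cells, cDC1 below, were chosen by the measured counts of 6 genes in the lung library. A barcode belonged to them with at least 2 UMIs of the chemokine receptor Xcr1 and the lectin Clec9a together, at least 3 of the MHC class II chain H2-Aa, at most 1 of the actin bundler Fscn1 and 0 of Cd3e and Cd79a. A UMI, or unique molecular identifier, stands for 1 captured RNA molecule, and only barcodes with at least 200 detected genes and at most 10% of their UMIs from mitochondrial genes were considered. In lung 63 of 8194 such barcodes met the rule, 0.769% (0.591 to 0.983), and in muscle 12 of 2243, 0.535% (0.277 to 0.933), which gave 75 of 10437 barcodes in all. The muscle cells enter here only as a count, and every value that follows is from lung. Intervals in brackets are exact 95% intervals that cover counting error only, Clopper-Pearson for shares, Poisson for levels and conditional binomial for ratios.

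Both libraries held CD45+ cells, that is leukocytes caught on magnetic beads, from gastrocnemius muscle or lung of mice labelled as TB mice of a CAC mouse model. Those short names were not spelled out, no treatment was given for either library, and neither the number of mice nor their strain, sex or age was stated. Tissue was minced and digested with Liberase TL and DNase I, red cells were lysed, and libraries were made with the Chromium 5′ kit from 10x Genomics. There was 1 library per tissue and all groups of cells compared below came from the same lung library, so no difference was tested and ratios describe these cells only. The series also covers RNA from muscle of mice given IgG, anti-PD-L1 or anti-CD8a, which was not analysed here.

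Conventional dendritic cells take up material in tissues and show fragments of it to T cells on MHC molecules. The type 1 subset depends on the transcription factors IRF8 and BATF3, takes up debris of dead cells with the help of CLEC9A, and is known for cross-presentation, the display of swallowed antigen on MHC class I to CD8 T cells. Its receptor XCR1 reads XCL1, a chemokine made by natural killer cells and activated T cells, and its growth factor is FLT3 ligand. On activation these cells switch on CCR7 and FSCN1 and leave for the lymph node. The rule limits Fscn1 to at most 1 count but does not limit Ccr7, which had a UMI in 5 of the 63 lung cells.

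The 63 cDC1 held 739310 UMIs, with a median of 10766 per cell (lowest 891, highest 25377) and a median of 3207 genes. They were set against 3 groups. The first, called the reference, was the 1262 other lung barcodes with at least 5 counts of H2-Aa and 0 of Cd79a (median 7009.5 UMIs). The second was 340 cells with at least 2 counts of Mgl2 and Cd209a together (median 9558), of which 333 were also reference cells. They also had at least 3 counts of H2-Aa, at most 1 of Fscn1, at most 1 of Xcr1 and Clec9a together and 0 of Cd3e and Cd79a. Both of these groups were rich in macrophage genes, with C1qa, a complement subunit, at 905 and 1420 CPM. The third was 44 migratory dendritic cells with Ccr7 and at least 2 counts of Fscn1 (median 7816.5), 38 of them also in the reference. These had at least 3 counts of H2-Aa and 0 of Cd3e and Cd79a. Levels are CPM, the counts of a gene per 1000000 UMIs of a whole group, so that a cell with more UMIs weighs more. The lung library held 34751225 UMIs over 8481 barcodes, 3.22% of them over the mitochondrial limit, against 14056163 over 5547 and 59.5% in muscle. Of the barcodes 64 occurred in both libraries, and no cDC1 was among them. Removal of doublets before deposit was not stated. Simulated doublets marked 5 of the 63 cells (7.94%) and 9.83% of the reference, and the marked cells were kept.

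The label was checked first on Irf8, Naaa and Wdfy4, the 3 named markers that did not choose the cells. All 3 were seen in 51 of the 63 cells, 2 of them in 7, 1 in 4 and none in 1 cell, and the 12 cells that lacked one had a median of 4417 UMIs. Irf8, the master regulator of the subset, ran from 0 through a median of 1202 to 3182 CPM among the cells. Naaa, a lysosomal amidase, ran from 0 through 1429 to 6734 CPM. Wdfy4, a protein needed for cross-presentation of cell debris, ran from 0 through 1016 to 10403 CPM, and 16.3% of its counts lay in 1 cell. Irf8 had a UMI in 87.3% of the cDC1 (76.5 to 94.4) against 44.0% of the reference, 16.4% of 335 T cells (median 3813 UMIs) and 3.14% of 1147 neutrophils (median 2525). With every cell thinned to 1000 UMIs, which left out 1 cDC1, 79 reference cells, 1 T cell and 41 neutrophils, the shares were 58.1%, 12.6%, 5.09% and 0.995%. For Wdfy4 the thinned shares were 61.3% of cDC1, 8.20% of the reference, 0.599% of T cells and 5.88% of neutrophils, and before thinning they were 92.1%, 33.7%, 3.28% and 14.8%. Naaa set the cells apart least, with thinned shares of 61.3% of cDC1, 30.7% of the Mgl2 Cd209a cells, 25.4% of the reference, 2.99% of T cells and 11.4% of neutrophils, and before thinning 92.1%, 84.4%, 67.9%, 10.4% and 27.9%. For each of the 3 markers the cDC1 share was above those of T cells and neutrophils, both chosen with at most 1 count of H2-Aa. The rule's own genes are given only as a description. Clec9a stood at 421 CPM and Xcr1 at 223 CPM, in 62 and 45 of the 63 cells, and H2-Aa at 6768 CPM.

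Of 11933 genes with at least 20 counts over both groups, 1074 (9.0%) were called higher in cDC1 than in the reference and 946 (7.93%) lower, with a median log2 ratio of 0.016 over all. A gene was called when its levels differed at least 2-fold and the interval of the ratio excluded 1, which is a rule of size and not a test. The counts of each list below are to be read beside the shares over all genes of the same comparison. Of 35 compared genes of a cDC1 identity list 30 were called higher and 2 lower, with a median log2 ratio of 3.29. Because the cells were picked for Xcr1 and Clec9a, this count and those that follow describe the cells so picked and are no independent evidence of what they are. Irf8 stood at 1229.5 CPM against 142 in the reference (log2 ratio 3.12). Wdfy4 stood at 1601.5 against 93.6 CPM (4.10, 3.97 to 4.22) and Naaa at 1488 against 335 CPM (2.15, 2.05 to 2.25). Several surface molecules of the subset were among them. The integrin chain Itgae, which pairs to bind E-cadherin, stood at 745 against 26.4 CPM (4.82), and the adhesion molecule Cadm1 at 326 against 9.26 CPM (5.14). The inhibitory receptor Btla stood at 377 against 17.6 CPM (4.42), and Clnk, an adaptor of immune receptors, at 123 against 0.689 CPM (7.48, 6.38 to 8.83). Gpr33, an orphan receptor of the chemoattractant family, was seen in only 12 of the 63 cells, yet 25 of its 26 counts over both groups lay there (8.42, 5.81 to 13.78). Ppt1, a lysosomal thioesterase, stood at 625 against 78.3 CPM.

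**Figure D1:**
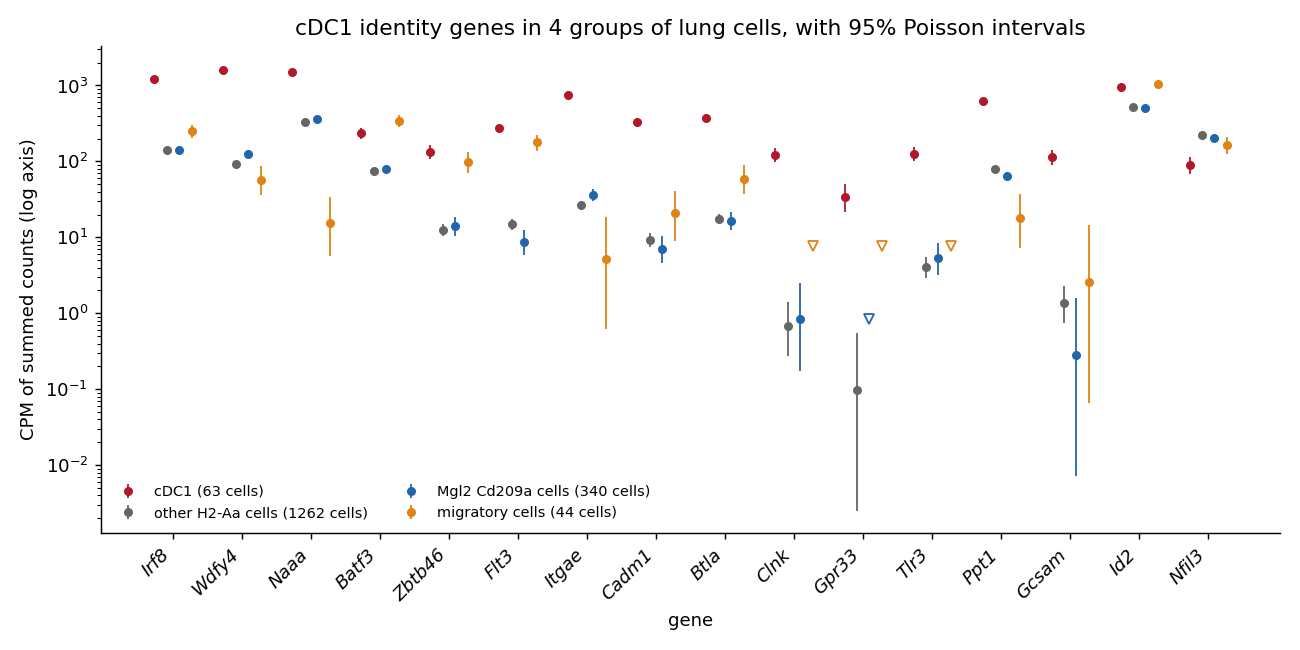
Summed level of 16 cDC1 genes in CPM on a log axis, with exact 95% intervals of counting error, in the cDC1 and the 3 comparison groups of the lung library; an open triangle marks a gene with 0 counts, at the level of 3 counts in that group. Most genes stood highest in the cDC1 points, while Id2 lay close together in all groups and Nfil3 lay lowest in the cDC1.

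Against the Mgl2 Cd209a cells, 823 of 9796 genes (8.40%) were called higher and 808 (8.25%) lower, around a median of 0.012. The identity list again stood out in size, with 30 of 33 genes higher, 1 lower and a median of 3.56. Against the migratory cells, 1263 of 6387 genes (19.8%) were called higher and 636 (9.96%) lower, around a median of 0.29. Here 24 of 33 identity genes were higher and 1 lower, with a median of 3.41. Naaa, at 15.5 CPM in the migratory cells (log2 ratio 6.58), Itgae at 5.18 CPM (7.17) and Ppt1 at 18.1 CPM (5.11) were among those higher in cDC1. Others of the list were not called there. Flt3, the receptor of the growth factor, stood at 272 against 179 CPM (0.61, 0.20 to 1.02), Zbtb46 at 134 against 98.4 CPM (0.44, −0.11 to 1.02) and Batf3 at 234 against 342 CPM (−0.55, −0.88 to −0.21), all within 2-fold. Ly75, the endocytic receptor DEC-205, was lower in cDC1 (116 against 282 CPM, −1.28). The migratory group was chosen without Xcr1 or Clec9a, so it can hold cells of either conventional subset. Xcr1 had a UMI in 0 of its 44 cells and Clec9a in 1, and the make-up of the group was not tested.

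**Figure D2:**
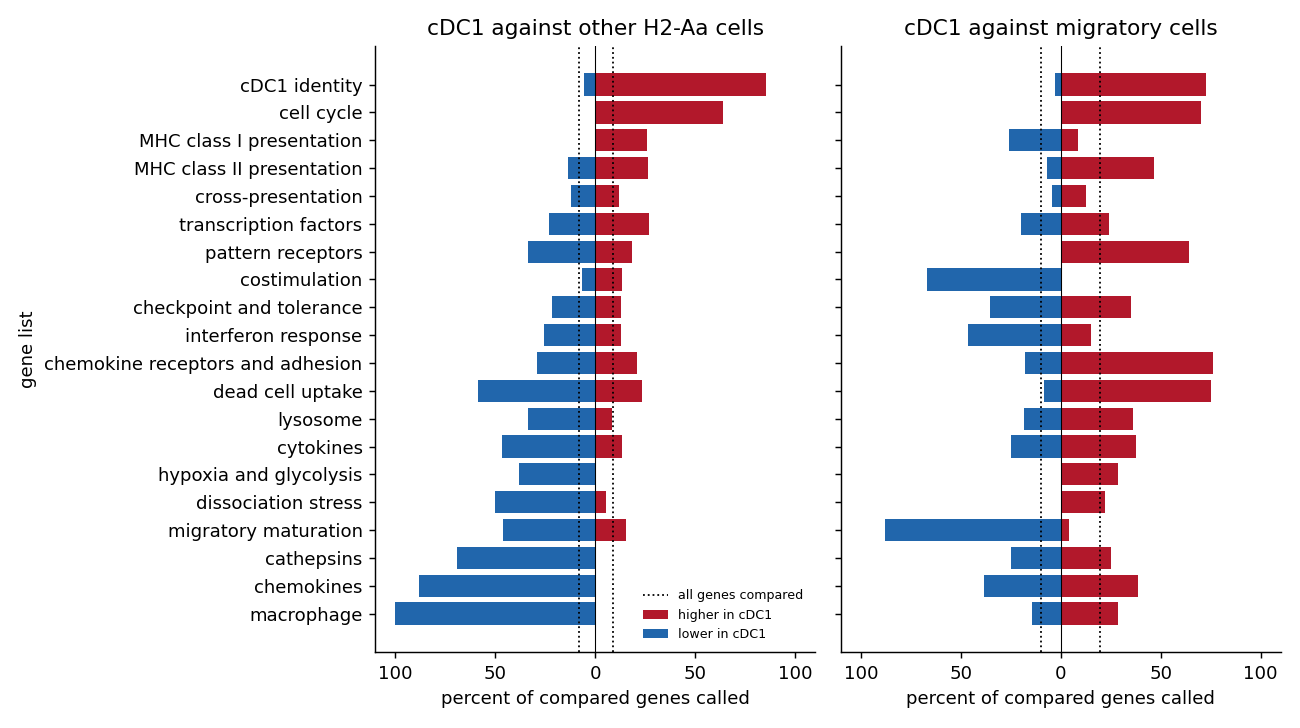
Share of the compared genes of 20 lists that were called higher (right) or lower (left) in the cDC1, in percent, against the reference cells (other H2-Aa cells) and against the migratory cells; dotted lines mark the same shares over all genes compared. The identity list lay far to the right in both panels, the chemokine, cathepsin and macrophage lists lay to the left against the reference, and the migratory maturation list lay to the left against the migratory cells.

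Of 26 transcription factors compared with the reference 7 were called higher, 6 lower and 13 neither, with a median of −0.05. Beside Irf8, Zbtb46, a factor of conventional dendritic cells, stood at 134 against 12.5 CPM (3.42, 3.03 to 3.81), and Mycl at 58.2 against 3.15 CPM (4.21). Batf3, the partner of IRF8, stood at 234 against 74.9 CPM (1.64, 1.40 to 1.88), and Bcl6, a repressor, at 204 against 49.2 CPM (2.05). The factors called lower included those of macrophages and monocytes. Cebpb stood at 333 against 1676 CPM (−2.33), Cebpa at 12.2 against 63.3 CPM (−2.38) and Klf4 at 37.9 against 183 CPM (−2.27). Id2, which is required for the lineage, stood at 956 against 527 CPM (0.86, 0.74 to 0.97) and was not called. Nfil3, which acts upstream of Id2 in progenitors, was lower in cDC1 than in the reference (89.3 against 224 CPM, −1.33) and than in the Mgl2 Cd209a cells (−1.21). Irf8 was spread over 55 cells and Batf3 over 43, with no more than 7.51% of the counts of either in 1 cell.

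The stretch before the start of such genes can hold letters that IRF8 and BATF3 are known to bind together with a partner. Windows of 250 bases before the start were read from RefSeq on build GRCm38.p6, which is not the build of the counts, for 27025 genes, among them 31 of the identity list and 20 of the MHC class I list. Both strands were searched for 4 letter patterns, chosen with the values in view. An ETS-IRF composite, GGAA and GAAA on 1 strand with any 2 letters between, was in 2.68% of all windows and in those of Gpr33 and Cd8a among the identity genes. An AP-1-IRF composite, GAAA followed at once by TGANTCA, was in 0.118% of all windows and in that of Zbtb46, where it overlaps TGANTCA, an AP-1 site found in 7.82% of all windows. The core of an interferon response element, GAAA repeated after any 2 letters, was in 3.46% of all windows. It was in those of Ifi205, Dpp4 and Jaml among the identity genes and in those of B2m, H2-T22 and H2-T23 of the MHC class I list. These genes were taken for their matches, after their values were seen, and a match shows only that the letters are there. The windows are printed on the strand of the gene, with the matched letters in capitals. Gpr33 is shown whole (chr12:52028064-52028313, minus strand), and of the others the site with its flanks, Zbtb46 (chr2:181424430-181424459, minus), Ifi205 (chr1:174031870-174031899, minus), Dpp4 (chr2:62412264-62412293, minus), Jaml (chr9:45079137-45079166, plus) and B2m (chr2:122147538-122147567, plus).
Gpr33: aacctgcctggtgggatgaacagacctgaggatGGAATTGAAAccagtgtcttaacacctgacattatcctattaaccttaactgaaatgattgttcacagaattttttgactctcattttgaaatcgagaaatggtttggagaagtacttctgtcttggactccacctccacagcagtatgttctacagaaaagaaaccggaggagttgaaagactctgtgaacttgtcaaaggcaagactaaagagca
Zbtb46: ccatttacctTGACTCATTTCacagcaaat
Ifi205: ccaggccaggGAAATTGAAAgctatgaaca
Dpp4: acaatcacctTTTCTCTTTCtttgccagcc
Jaml: gaggttcctgTTTCTGTTTCcgcagccacc
B2m: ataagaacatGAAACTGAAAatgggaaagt
In the counts Ifi205, a gene of the interferon-inducible family, stood at 280.0 CPM in cDC1 against 15.6 in the reference (log2 ratio 4.17, 3.86 to 4.48), with a UMI in 41 of 63 cells. Dpp4, a surface peptidase, stood at 173 against 28.0 CPM (2.63). Jaml, an adhesion molecule, at 335 against 211 CPM (0.67, 0.48 to 0.86), and B2m, the light chain of MHC class I, at 1365 against 1686 CPM (−0.30) were not called. Cd8a, the marker of the subset in lymphoid organs, had 4 counts in the cDC1, 5.41 CPM against 5.12 in the reference (0.08, −1.85 to 1.52). Genes with the same letters in this window thus differed widely in their ratios.

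Of 24 receptors for growth factors and cytokines compared with the reference 2 were called higher, 6 lower and 16 neither. Over all genes 9.0% were called higher and 7.93% lower, so the higher count lies near that share. Flt3 stood at 272 against 15.0 CPM (4.18, 3.87 to 4.50), and 45 of the 63 cells had a UMI, with a median of 197 and a highest value of 1346 CPM. After thinning to 1000 UMIs 17.7% of cDC1 and 1.27% of the reference had a UMI of Flt3 (before thinning 71.4% and 5.31%). None of the T cells or neutrophils had one after thinning, with intervals that reach 1.10% and 0.333%, and before it the neutrophil share was 0.349%. Kit, the receptor of stem cell factor, stood at 123 against 18.8 CPM (2.71, 2.33 to 3.08). Its log2 ratio to the migratory cells stayed within 2-fold, from 0.013 to 0.69 over the settings tried. The macrophage growth factor receptor Csf1r was lower than in the reference (54.1 against 274 CPM, −2.34). So was the shared receptor chain Il2rg (20.3 against 64.9 CPM, −1.68). The GM-CSF receptor chain Csf2ra stood at 239 against 243 CPM (−0.02, −0.25 to 0.20) and the interferon gamma receptor chain Ifngr1 at 180 against 176 CPM (0.03, −0.24 to 0.28).

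The ligand of XCR1 lay in lymphocytes. No UMI of Xcl1 was found in the 63 cells, with an interval that reaches 4.99 CPM. Xcl1 stood at 481 CPM (446 to 517) in T cells, where 35 of 335 cells had a UMI, and at 425 CPM (328 to 540.3) in 42 natural killer cells, where 17 had one. B cells held 3.10 CPM and neutrophils 0.570 CPM. Flt3l, the ligand of FLT3, stood at 18.5 CPM in T cells and at 1.35 CPM, a single count, in the cDC1. Ifng stood at 122 CPM in natural killer cells and 18.5 CPM in T cells, with 0 counts in the cDC1, and Cd40lg at 37.6 CPM in T cells.

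Of 24 chemokine receptors and adhesion molecules compared with the reference 5 were called higher and 7 lower. The gut homing receptor Ccr9 stood at 33.8 against 4.33 CPM (2.96, 2.19 to 3.70) with a UMI in 15 cells, and Cxcr3 at 24.3 against 1.38 CPM (4.14, 3.05 to 5.26) in 9 cells. The fractalkine receptor Cx3cr1 (6.76 against 26.3 CPM, −1.96) and the integrin Itgam (33.8 against 110 CPM, −1.70), which mark monocyte-derived and type 2 cells, were lower. Against the migratory cells 13 of 17 were higher and 3 lower. The leukocyte integrin Itgb2 stood at 202 against 51.8 CPM (1.96), its partner Itgax at 280.0 against 117 CPM (1.27) and the monocyte chemokine receptor Ccr2 at 110 against 2.59 CPM (5.40). The lower ones were Ccr7 (29.8 against 2014 CPM, −6.08), which chose the migratory cells, the oxysterol receptor Gpr183 (52.8 against 199 CPM, −1.92) and the integrin Itga4 (100.1 against 598 CPM, −2.58). Of the 22 counts of Ccr7 in the cDC1, 45.5% lay in 1 cell.

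Of 17 receptors for dead cells compared with the reference 4 were called higher and 10 lower, with a median of −1.13. The receptor for phosphatidylserine Havcr2, or TIM-3, stood at 242 against 69.2 CPM (1.81, 1.56 to 2.04), and the scavenger receptor Cd36 at 348 against 95.7 CPM (1.86). Havcr2 had a UMI in 45 cells and Cd36 in 46, though 26.1% of the Cd36 counts lay in 1 cell. Ly75 stood at 116 against 38.5 CPM (1.59). The engulfment receptors of macrophages were lower, with Mertk at 60.9 against 158 CPM (−1.37), Lrp1 at 126 against 275 CPM (−1.13) and Stab1 at 8.12 against 38.2 CPM (−2.24). Beside the migratory cells 9 of 12 genes were higher, Havcr2 at 3.74 and Cd36 at 3.37 on the log2 scale, and 1 was lower.

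Of 27 sensors of microbes compared with the reference 5 were called higher and 9 lower. Tlr3, which senses double-stranded RNA, stood at 124 against 4.04 CPM (4.95), with 92 counts in 31 cells. Tlr11, which reads a profilin of parasites in mice, stood at 29.8 against 0.788 CPM (5.24, 4.02 to 6.62) and its partner Tlr12 at 18.9 against 2.76 CPM (2.78, 1.74 to 3.75). The receptors of bacterial lipids and cell walls were lower, with Tlr2 at 16.2 against 98.8 CPM (−2.61), Tlr4 at 33.8 against 89.1 CPM (−1.40) and the lectin Clec7a at 260 against 616 CPM (−1.25). Tlr7, a sensor of single-stranded RNA that is known to be missing from this subset, had 1 count in the cDC1, against 13.4 CPM in the reference (−3.31, −8.62 to −0.81). Clec12a, an inhibitory lectin, stood at 116 against 56.7 CPM (1.04).

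Of 23 genes of MHC class I presentation compared with the reference 6 were called higher, 0 lower and 17 neither, with a median of 0.56. The immunoproteasome subunit Psmb9 stood at 521 against 112 CPM (2.22, 2.05 to 2.39), and among the cells it ran from 0 through 451 to 3367 CPM. The peptide transporter chains Tap1 and Tap2 stood at 222 against 54.6 CPM (2.02) and 172 against 56.4 CPM (1.61). The proteasome activator Psme1 stood at 759 against 297 CPM (1.35) and Nlrc5, the activator of class I genes, at 58.2 against 25.5 CPM (1.19). The chains H2-K1 (898 against 858 CPM, 0.07) and H2-D1 (1014 against 1059 CPM, −0.06) lay close to the reference. Against the Mgl2 Cd209a cells 10 of 23 were higher and none lower. Against the migratory cells 2 were higher, 6 lower and 15 neither, with a median of −0.53. Psmb9, Tap1 and Tap2 were not among the lower ones. Over the settings tried they ran from 0.50 to 0.90, from 0.46 to 0.73 and from 0.08 to 0.43, all within 2-fold. H2-K1 stood at 898 against 2084 CPM there (−1.21, −1.36 to −1.06) and the activator subunit Psme2 at 475 against 1349 CPM (−1.51), while the chaperones Calr (408 against 137 CPM, 1.57) and Pdia3 (450.4 against 114 CPM, 1.98) were higher in cDC1. Across the 63 cells the summed level of the MHC class I list and that of the interferon list had a Spearman rho of 0.634. This is a description of cells of 1 library whose totals are shared by both lists, and rho with the number of UMIs was −0.15 and −0.18.

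Of 25 genes of the cross-presentation list compared with the reference 3 were called higher, 3 lower and 19 neither. Over all genes 9.0% were called higher and 7.93% lower, so these counts lie not far from those shares. The higher ones were Wdfy4, the vesicle GTPase Rab43 (115 against 19.2 CPM, 2.58, 2.20 to 2.96) and the secreted nuclease Dnase1l3 (161 against 3.84 CPM, 5.39, 4.86 to 5.95). Rab43 had a UMI in 35 cells and Dnase1l3 in 29. Among the lower ones were Cybb, a subunit of the phagosome oxidase (107 against 428 CPM), and the endosomal protease Lgmn (87.9 against 495 CPM, −2.49). Sec61b, of the channel proposed to export antigen, stood at 665 against 913 CPM (−0.46).

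Of 15 genes of MHC class II presentation compared with the reference 4 were called higher and 2 lower. H2-Ob and H2-Oa, which form the H2-O brake on peptide loading, stood at 108 against 9.16 CPM (3.56, 3.11 to 4.01) and 106 against 20.2 CPM (2.39). The transactivator Ciita stood at 283 against 76.4 CPM (1.89) and the ubiquitin ligase Marchf1, which removes class II from the surface, at 244 against 93.3 CPM (1.38). H2-Ab1 ran from 0 through 8794 to 15310 CPM over the cells and stood at 8174 against 4475 CPM (0.87), and the invariant chain Cd74 at 18260 against 12345 CPM (0.56). Both were within 2-fold, and the reference had been chosen for a class II gene. The loading chaperone H2-DMa lay at 867 against 780 CPM (0.15). Compared with the migratory cells 7 of 15 were higher and 1 lower, Marchf1 at 244 against 7.77 CPM (4.97, 3.40 to 7.26), H2-DMb1 at 396 against 67.3 CPM (2.56) and H2-Ab1 at 8174 against 3130 CPM (1.39).

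Cathepsins are proteases that cut antigen and the invariant chain. Of 13 compared with the reference none was called higher and 9 were lower, with a median of −1.46. Cathepsin S, which trims the invariant chain, stood at 752 against 2187 CPM for Ctss (−1.54, −1.66 to −1.42). Ctsl, cathepsin L, stood at 97.4 against 445 CPM (−2.19, −2.55 to −1.86), with a UMI in 24 of the 63 cells. Ctsb stood at 218 against 844 CPM (−1.95) and Ctsd at 306 against 1355 CPM (−2.15). Against the Mgl2 Cd209a cells, also rich in macrophage genes, 7 of 11 cathepsins were lower and 0 higher, with a median of −1.26. These ratios moved with the settings tried. Ctsl ran from −2.78 to −0.40 there, Ctss from −2.03 to −0.49 and Ctsb from −2.20 to −0.59, so some settings left them within 2-fold. Cst3, cystatin C, a secreted inhibitor of cathepsins S, L and B but not of D, was the most abundant of the genes named here. It stood at 28086 CPM against 4222 in the reference (2.73, 2.71 to 2.76). It ran from 0 through 32470 to 62369 CPM over the cells, and 61 of 63 had a UMI. Cstb, the inhibitor inside cells, was lower (256 against 841 CPM, −1.72). Of 8 cathepsins compared with the migratory cells 2 were higher, Ctsl (97.4 against 36.2 CPM, 1.43) and Ctsd (306 against 59.5 CPM, 2.36), and 2 were lower. The calls of Ctsl and Ctsd ended in the 44 cells in which both Xcr1 and Clec9a were seen, where Ctsl stood at 47.5 CPM and Ctsd turned to −1.18, and Ctsd had a UMI in only 16 of the 63 cells. Cst3 stood at 28086 against 13852 CPM (1.02, 0.98 to 1.06). Of 24 lysosome genes 2 were higher and 8 lower than in the reference, the higher ones being Naaa and Ppt1. The tetraspanin Cd63 (71.7 against 595 CPM, −3.05) and the membrane protein Lamp1 (110 against 580.1 CPM, −2.40) were among the lower.

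**Figure D3:**
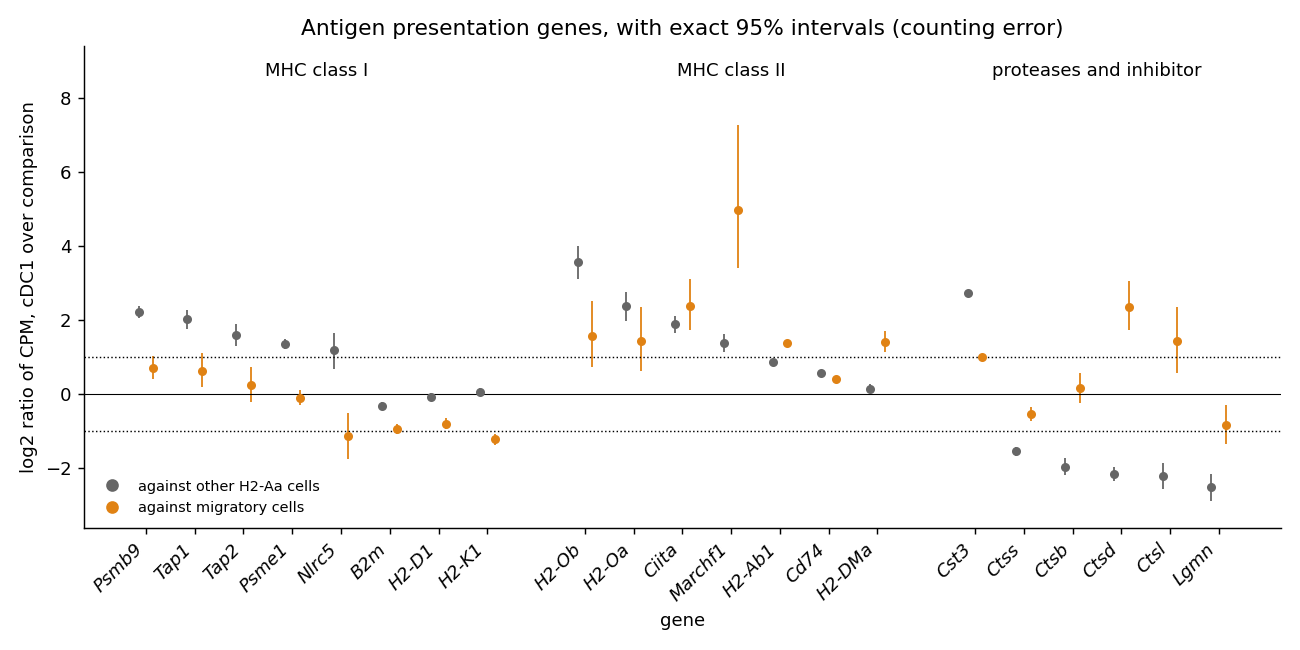
Log2 ratio of the cDC1 to the reference cells (grey) and to the migratory cells (orange), each with its 95% interval. The genes are those of MHC class I, those of MHC class II, and proteases together with the inhibitor Cst3. A value of 0 is the same level and dotted lines are 2-fold. Against the reference Psmb9, Tap1, H2-Ob, H2-Oa and Cst3 lay above 2, the chains B2m, H2-D1 and H2-K1 lay between −0.30 and 0.07, and Ctss, Ctsb, Ctsd, Ctsl and Lgmn lay below −1.

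Of 17 chemokines compared with the reference none was called higher and 15 were lower, with a median of −1.78. The neutrophil attractant Cxcl2 stood at 718 against 2133 CPM (−1.57), Ccl6 at 618 against 4160 CPM (−2.75), Ccl3 at 33.8 against 258 CPM (−2.93) and Ccl24 at 10.8 against 193 CPM (−4.16). The interferon-induced Cxcl10 had no count in cDC1 against 33.3 CPM, which is at least 3.04 lower on the log2 scale. Most of what was counted sat in few cells, with 68.6% of the Cxcl3 counts and 26.3% of those of Ccl6 in 1 cell each. Ccl17, which attracts CCR4-bearing T cells, stood at 1593 against 1616 CPM (−0.02) with a UMI in 51 cells and 33.2% of its counts in 1 cell. Cxcl16 stood at 271 against 303 CPM (−0.16) in 47 cells. Of 13 compared with the migratory cells 5 were higher and 5 lower, among them Ccl22 (36.5 against 2464 CPM, −6.08) and Ccl5 (5.41 against 2185 CPM, −8.66).

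Of 15 cytokines compared with the reference 2 were called higher and 7 lower. The higher ones, the interleukin 12 chains Il12a and Il12b, rested on 9 counts in a single cell and on 11 counts in 2 cells, and Il12b stood lower than in the migratory cells (14.9 against 98.4 CPM, −2.73). Il1b stood at 709 against 2102 CPM (−1.57), with a median of 65.1 CPM over the cells and 38.7% of its counts in 1 cell. Tnf (6.76 against 50.1 CPM, −2.89), Osm (96.0 against 396 CPM, −2.04) and Il6 (6.76 against 49.1 CPM, −2.86) were lower, and Il15 stood at 18.9 against 12.3 CPM (0.62).

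Of 15 costimulatory molecules compared with the reference 2 were called higher and 1 lower. The higher ones were adhesion receptors of the SLAM family, Cd48 (161 against 74.7 CPM, 1.11) and Slamf7 (168 against 38.2 CPM, 2.13), seen in 44 and 40 cells. Cd86 stood at 315 against 254 CPM (0.31, 0.11 to 0.50) and Cd40 at 28.4 against 21.2 CPM (0.42, −0.30 to 1.07). Of 9 compared with the migratory cells none was higher and 6 were lower, Cd40 at 28.4 against 181 CPM (−2.67), Cd80 at 161 against 425 CPM (−1.40) and Cd83 at 280.0 against 655 CPM (−1.23). Of 26 genes of migratory maturation 22 were lower than in the migratory cells and 1 higher, with a median of −3.13. They included Relb (21.6 against 383 CPM, −4.15), Cacnb3 (5.41 against 639 CPM, −6.88) and Il4i1 (1.35 against 536 CPM, −8.63). The exception was Ccser1 (198 against 7.77 CPM, 4.67, 3.09 to 6.96), which also stood above the reference (5.16), with 26.0% of its counts in 1 cell. Since Fscn1 was limited in the cDC1, and Fscn1 and Ccr7 chose the migratory cells, this list was bound to differ between the 2 groups.

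Among checkpoint and tolerance genes 3 of 23 were called higher than in the reference and 5 lower. The higher ones were Btla, Havcr2 and Cd200, the last with 14 counts. Cd274, which encodes PD-L1, stood at 216 against 317 CPM (−0.55, −0.79 to −0.32), with a median of 0 over the cells, a UMI in 28 of 63 and 28.1% of its counts in 1 cell. It stood at 89.6 CPM in the 44 cells with both Xcr1 and Clec9a, a log2 ratio of −1.82 to the reference, and at 647 CPM in the 18 with Clec9a alone. Against the migratory cells it was lower (645 CPM there, −1.57). Arg1, an arginine-degrading enzyme of macrophages, was lower than in the reference (158 against 926 CPM, −2.55) and Aldh1a2, which makes retinoic acid, lower than in the migratory cells (21.6 against 531 CPM, −4.62).

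Interferon response genes leaned lower, though most were not called against the reference. Of 31 compared with it 4 were called higher, 8 lower and 19 neither, with a median of −0.58 against 0.016 over all genes. The median was −0.65 against the Mgl2 Cd209a cells and −0.74 against the migratory cells, with 0.012 and 0.29 over all genes. Ly6e stood at 1235 against 498 CPM (1.31, 1.21 to 1.41) and was seen in 58 cells, and the signal transducer Stat2 stood at 87.9 against 31.9 CPM (1.46). Ifi27l2a (64.9 against 320 CPM, −2.30) and the GTPase Gbp2 (10.8 against 40.7 CPM, −1.91) were lower. Of 18 genes that respond to tissue digestion 1 was higher and 9 lower than in the reference, with Junb at 484 against 1444 CPM (−1.58) and Dusp1 at 162 against 490.0 CPM (−1.59). None of these 18 was lower than in the migratory cells and 4 were higher. Of 21 genes of hypoxia and glycolysis none was higher and 8 were lower than in the reference, among them Hif1a (176 against 428 CPM, −1.28) and Vegfa (67.6 against 221 CPM, −1.71).

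Of 25 cell cycle genes compared with the reference 16 were called higher and none lower, with a median of 1.30. Against the Mgl2 Cd209a cells 9 of 25 were higher, and against the migratory cells 14 of 20, none lower in either. Top2a, the topoisomerase of dividing cells, stood at 106 against 34.2 CPM (1.63, 1.25 to 1.98), Ube2c at 130 against 36.8 CPM (1.82) and Pclaf at 143 against 47.4 CPM (1.60). These genes lay in a minority of cells, Top2a in 13, Ube2c in 18 and Pclaf in 15, while Stmn1 (196 against 65.4 CPM, 1.58) was seen in 30 and Hmgb2 (461 against 169 CPM, 1.45) in 37. A cell was counted as dividing with UMIs of at least 3 of 16 mitotic and S phase genes. After thinning to 1000 UMIs 10 of 62 cDC1 met this, 16.1% (8.02 to 27.7). The shares were 3.38% in the reference (2.43 to 4.58), 5.01% in the Mgl2 Cd209a cells (2.95 to 7.91), 4.49% in T cells and 0.181% in neutrophils. None of the 44 migratory cells met it, with an interval that reaches 8.04%. At full depth the shares were 25.4% of cDC1, 9.67% of the reference and 16.5% of the Mgl2 Cd209a cells. At 500 UMIs 2 of 63 cDC1 met it (3.17%, 0.387 to 11.0), against 1.11% of the reference, and at 2000 UMIs 21.1% against 5.56%. Without the 16 cells dividing at full depth, no gene of the list was called higher than in the reference and 9 were called lower, and against the migratory cells 1 was higher and 1 lower. Dividing cells were left out of 1 group only there. Dividing cells had a median of 14122 UMIs against 10233 in the others. The summed cell cycle level had a Spearman rho of 0.0016 with that of MHC class II over the 63 cells, given as a description.

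**Figure D4:**
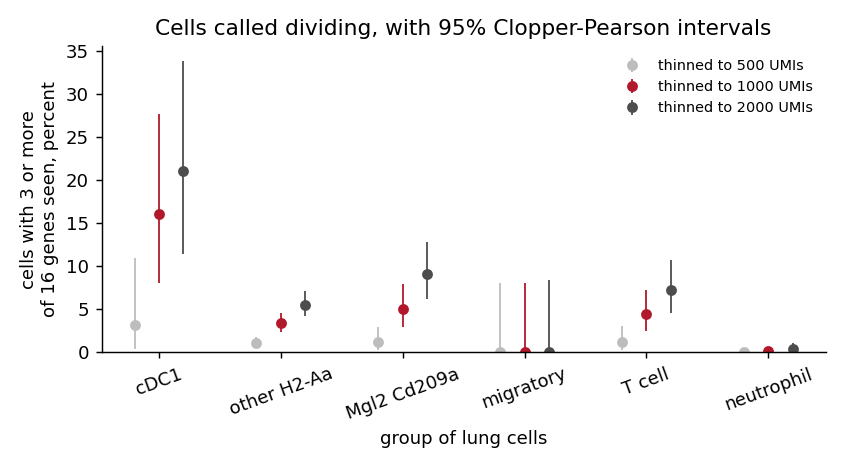
Share of cells counted as dividing, in percent with exact 95% intervals, by cell group with cells thinned to 500, 1000 and 2000 UMIs. The cDC1 share lay above the others at each depth, and at 500 UMIs its interval of 0.387 to 11.0% took in the shares of the reference, the Mgl2 Cd209a cells and the T cells.

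Outside the lists the 10 genes with the largest ratios over the reference were taken among those with at least 100 counts. They included Lrba, a vesicle protein (422 against 24.8 CPM, 4.09), the creatine kinase Ckb (806 against 49.8 CPM, 4.02, 3.84 to 4.19) and the lysosomal sulfatase Arsb (230 against 14.8 CPM, 3.96). The nuclear receptor partner Zfp366 (3.79), the troponin Tnni2 (154 against 11.3 CPM, 3.77), Asb2 (147 against 11.4 CPM, 3.69), the kinase Lrrk2 (223 against 19.6 CPM, 3.51) and Septin6 (156 against 15.2 CPM, 3.36) belonged there too. Ckb was the most widely seen of these, in 53 of 63 cells, with no more than 8.22% of its counts in 1. All of these were also called higher than in the migratory cells, Zfp366 by 1.09 and Ckb by 4.96 on the log2 scale. At the other end stood macrophage and inflammation genes, the factor Maf (1.35 against 39.9 CPM, −4.88), the acute phase gene Saa3 (2.71 against 65.0 CPM, −4.59) and Timp1 (2.71 against 52.4 CPM, −4.28).

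Genes of other cell types were counted in the same 63 cells. All 12 macrophage genes were called lower than in the reference, with a median of −3.58, and their summed level was 507 CPM against 7788 in the reference, 9213 in the Mgl2 Cd209a cells and 401 in the migratory cells. Over the cells it ran from 0 through 68.0 to 6321 CPM, and 9 cells held at least 10 such counts. C1qa stood at 39.2 against 905 CPM (−4.53), with a UMI in 11 cells, and Apoe at 110 against 3365 CPM (−4.94). In the 7 cells with at least 3 counts of C1qa, C1qb and C1qc together Irf8 stood at 403 and Wdfy4 at 265 CPM. The 46 cells with none held them at 1315 and 1852 CPM, while Batf3 stood at 223 and 231 CPM in the 7 and the 46. Of 14 type 2 dendritic cell genes 7 were lower and 1, Kit, higher, and 4 of the 15 listed, Cd209a among them, were at 0. Against the Mgl2 Cd209a cells, which were chosen for 2 of them, 12 of 14 were lower. The summed type 2 level ran from 0 through 1194 to 20124 CPM, mostly through Ccl17. The plasmacytoid list had 5 of 11 genes higher, but Siglech had 92.3% of its 26 counts, and Cox6a2 and Klk1 all of theirs, in 1 cell. Neutrophil genes ran from 0 through 150 to 23585 CPM, monocyte genes from 0 through 263 to 11549 CPM and alveolar macrophage genes from 0 through 1278 to 10615 CPM, the last mostly through Plet1, which stood at 1059 against 517 CPM (1.03, 0.92 to 1.14) and was seen in 58 cells. T cell, natural killer and B cell genes had medians of 0. The part of such counts in the results was not tested.

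The cells fell into classes by the 2 genes that chose them. Both Xcr1 and Clec9a were seen in 44 cells (median 12600 UMIs), Clec9a alone in 18 (median 8882.5) and Xcr1 alone in 1 (1753 UMIs). The cells with both held Irf8 at 1469 CPM, Itgae at 872, Cadm1 at 383 and Cst3 at 32297 CPM. Those with Clec9a alone held 433, 320, 113 and 13947 CPM. The summed identity level, 11706 CPM over all and from 825 through 10646 to 29640 by cell, was 13313 CPM with both and 6223 with Clec9a alone, still above the 2412 CPM of the reference. It fell short of the reference level in 3 cells, which all lacked Xcr1. In 7 cells, again all without Xcr1, it fell short of the 3728 CPM of the migratory cells. The cells with Clec9a alone also held more of other genes. Zeb2, a factor of monocytes and plasmacytoid cells, stood at 1537 CPM there against 31.6 with both, Il1b at 1928 against 348, Mrc1 at 605 against 12.3, Ctss at 1809 against 441 and Cd274 at 647 against 89.6 CPM. Inhba, the activin A chain, named after its values were seen, stood at 1329 against 3.51 CPM, and at 306 CPM over all cells. Of its 226 counts 135 lay in 1 cell, and 155 lay in the 5 cells marked as doublets, without which it stood at 107 CPM. For Zeb2 52.7% of the counts of all 63 cells lay in 1 cell, and for Mrc1 74.3%. The summed macrophage level was 1780 against 130 CPM. The class I gene Psmb9 stood at 279 against 589 CPM, while Tap1 stood at 214 against 225. These classes were set by the rule's own genes and by depth, and no test was made between them.

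**Figure D5:**
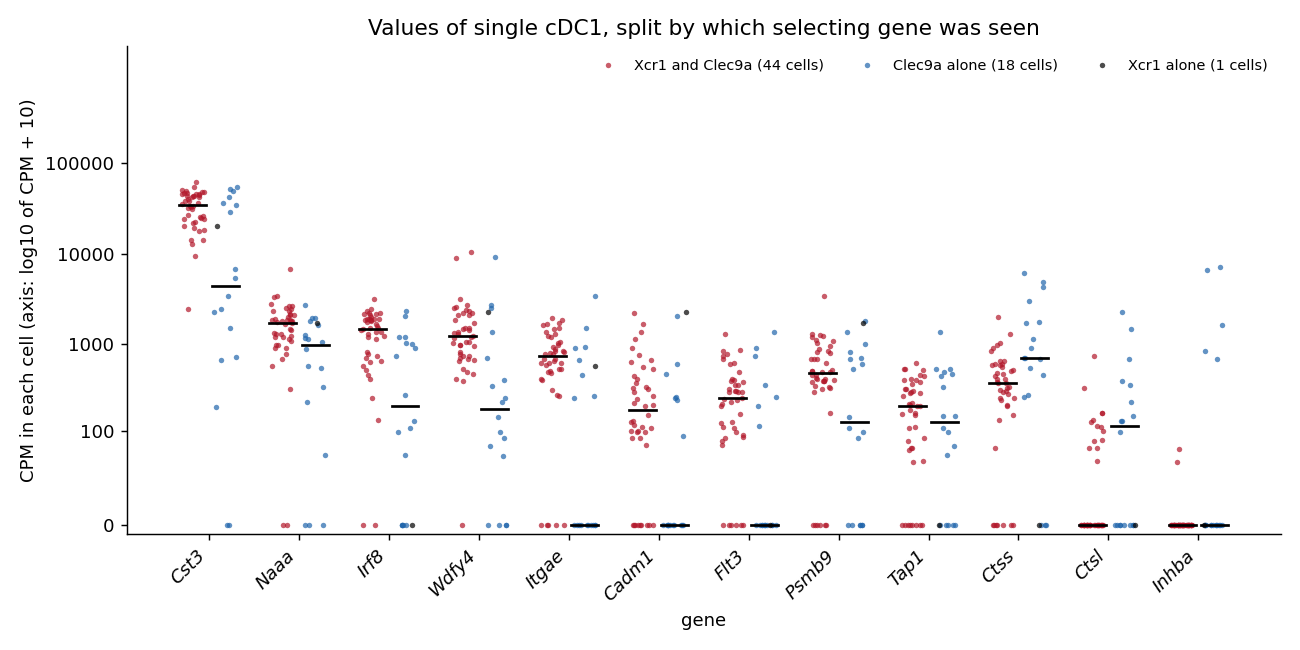
Level of 12 genes in each cDC1 on a log10 axis of CPM plus 10, with cells with both Xcr1 and Clec9a apart from the 18 with Clec9a alone, beside which the 1 cell with Xcr1 alone is drawn in black; each point is 1 cell, and bars are medians of the 44 and the 18 cells. Cells with both lay mostly high for Cst3, Naaa, Irf8 and Wdfy4, and the highest Inhba and Ctss points were cells with Clec9a alone.

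Among the 44 cells with both genes alone there were 31 identity genes higher than in the reference and 1 lower, 8 MHC class I genes higher, 9 cathepsins and 14 chemokines lower and 16 cell cycle genes higher. The plasmacytoid count fell to 2 higher, and 16 genes of hypoxia and glycolysis were lower in place of 8. Against the migratory cells 7 chemokine receptors and adhesion molecules were higher in place of 13, and no cathepsin in place of 2. With fewer cells fewer genes can reach 20 counts, so the numbers compared can differ and these counts are no shares. The share called over all genes is not given for these 44 cells, so the changes in count cannot be set beside it. The thresholds themselves cut through a slope. Irf8 stood at 234 CPM in 60 cells with 1 count of Xcr1 and Clec9a, at 442 CPM in the 17 with 2, at 929 in the 9 with 3 and at 1434 in the 37 with 4 or more, where the median depth rose to 14938 UMIs. Outside the H2-Aa limit lay 9 cells, just inside it 1, and all 63 had 0 counts of Fscn1. Only 4 cells were left out for Cd3e or Cd79a, and 61 of the 63 also met a mitochondrial limit of 5%.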

How the data were processed

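RNA of single CD45+ cells from lung and muscle was measured in 2 libraries, 1 per tissue. The deposited files hold UMI counts per gene and barcode for 55416 genes, which the authors made with Cell Ranger 7.0.1 on build GRCm39, per the submitters' processing notes. Barcodes entered with 200 or more detected genes and up to 10% mitochondrial UMIs. Counts were summed over the cells of a group and divided by its total to give CPM. Ratios carry exact conditional binomial intervals at 95%, levels exact Poisson intervals and shares Clopper-Pearson intervals, all of which cover counting error only. A gene with 0 counts in 1 group was set to 3 counts there, and its ratio is a bound. Genes with at least 20 counts over both groups were compared, and a gene was called at a 2-fold difference whose interval excluded 1. With 1 library there was no test and no p-value. Cells were thinned to 1000 UMIs with a fixed seed of 1 before shares were compared, and a doublet score from simulated doublets (2 per cell, 50 neighbours, 30 components, 2000 genes) marked 0.8% of barcodes per 1000 barcodes.

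T cells had at least 2 counts of Cd3e, natural killer cells at least 2 of Ncr1 and Klrb1c, B cells at least 2 of Cd79a, and neutrophils at least 20 of S100a8 and S100a9. The members and the 34 lists were chosen with earlier results of these data known. Named were the rule and marker genes, in each other list up to 6 called genes per direction with the largest ratios and up to 4 with the highest CPM, and outside the lists the 10 largest and 10 smallest ratios among called genes with at least 100 counts in the higher group. Genes outside that rule are said to be so, or were taken for a promoter match or a class difference after their values were seen. The alternatives were other thresholds of the rule, other limits on counts, ratio, mitochondrial share and depth, other totals, mean CPM over cells, edgeR TMM factors, removal of marked doublets and other comparison cells. The code of the calls was run on simulated Poisson counts, the same model that the intervals assume. Those counts had no spread between cells, so the run checks the code and not how the calls hold under such spread. The work used Python 3.11.15, numpy 2.4.6, scipy 1.17.1, scikit-learn 1.9.0, pandas 2.3.3, matplotlib 3.10.9 and edgeR 4.0.16.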

Additional observations from a re-analysis of the deposited data

Results flagged for a closer look

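Outside the lung library, 12 muscle barcodes met the rule for cDC1. They came from a library that enters no comparison here and are given as a count only.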

How the results depend on the processing

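No paired analysis was possible because there was 1 library per tissue, with no replicate. Counts of called genes moved with the limits. A limit of 100 counts, or fewer cells, also leaves fewer genes to compare than the 11933, 9796 and 6387 of the main run. The counts below are therefore no shares. With at least 100 counts per gene they were 629 higher than in the reference, 341 higher and 524 lower than in the Mgl2 Cd209a cells, and 342 and 211 against the migratory cells. With a ratio of at least 4 they were 338 and 373, 257 and 314, and 577 and 235. Without the top 5% of UMIs 506 genes were higher than in the Mgl2 Cd209a cells and 732 higher than in the migratory cells, and C1qa turned to 0.32 against the latter. At least 1 count of Xcr1 and Clec9a gave 123 members, and thinning to 500 UMIs a dividing share of 3.17%. TMM factors shifted the median log2 ratio of all genes to −0.12, −0.13 and 0.12 against the 3 groups.

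These single genes changed direction. With at least 3 counts of Xcr1 and Clec9a, Siglech fell to −1.61, Cox6a2 to −0.98 and Klk1 to −0.081 against the reference. Without marked doublets Cxcl3 was −1.08 against the Mgl2 Cd209a cells. With a reference limited to Fscn1 of at most 1 and no Cd3e, Aldh1a2 was 1.17 and Cacnb3 0.48. The next 3 alternatives were chosen after seeing the data. With comparison cells poor in C1q, 504 genes were lower than in the Mgl2 Cd209a cells, again a count and no share. C1qa, limited by that choice, was then 2.16, 3.10 and 3.36 against the 3 groups, Cd200 −0.053 against the reference, Mertk 1.56 and Tlr4 0.71 against the Mgl2 Cd209a cells, and Apoe 1.39 and Clec7a 1.23 against the migratory cells. Without dividing members, which by construction lowers these genes, Hmgb2, Pclaf, Stmn1, Top2a and Ube2c were −0.58, −3.61, −0.32, −3.14 and −1.44 against the reference and −0.87, −4.11, −0.60, −3.87 and −1.85 against the Mgl2 Cd209a cells. In members with both Xcr1 and Clec9a, Siglech was −1.49 and Cox6a2 −0.86 against the reference, Cxcl3 −1.51 against the Mgl2 Cd209a cells, and Ctsd −1.18, Osm −0.92, Vegfa −2.26 and Zeb2 −1.48 against the migratory cells. The cause of the other changes was not tested. Genes with few counts in 63 cells limit what could be compared, and 1 library leaves no spread between mice.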
